A study of Rattus norvegicus with 14 samples.

Results

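DNA methylation in chronic epilepsy was compared with healthy controls at the scale of megabases, by adding up the Methyl-Seq tags of neighbouring regions along the rat chromosomes. Each of the 294637 regions on chromosomes 1 to 20, out of 310070 regions in the whole table, was placed by its start into a fixed window of 1 Mb. Windows with at least 5 regions were kept. This left 2569 of 2571 windows, which held 294635 regions. The comparison asks whether methylation in chronically epileptic rats shifted over long stretches of chromosomes, or over chromosome ends, beyond single regions.

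The animals were male Wistar rats on a standard diet, and dorsal hippocampus was taken at the end of an observation period of 84 days. The 4 PILO rats had been injected with pilocarpine (340 mg/kg), a muscarinic agonist that induces status epilepticus, after methyl scopolamine (1 mg/kg) and followed by diazepam (8 mg/kg). Rats without status epilepticus after the first injection were given a smaller second dose. The 5 CTRL rats, age-matched, received methyl scopolamine and saline. Each rat gave 1 library from 500 ng of DNA, and animals were not pooled. Codes that start with FC in the sample labels were read as flow cells, a term that these labels do not spell out. The largest flow cell held 3 CTRL and 3 PILO libraries (CTRL 2 to 4 and PILO 2 to 4), a second 1 of each (CTRL 5 and PILO 5), and CTRL 1 was on another without a PILO library. A further 5 pilocarpine-injected rats on a ketogenic diet (PILO + KD) entered the fit for the estimate of the spread.

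In mammals methyl groups are carried mostly by cytosines that precede a guanine (CpG), and in the adult brain most of these sites are methylated outside CpG islands, the short CpG-rich stretches often found at gene starts. Methyl-capture sequencing pulls down DNA fragments with a methyl-CpG binding protein, so that a stretch of DNA yields more tags when it holds more methylated CpGs. Pilocarpine-injected rats pass through an acute status epilepticus and a silent phase before spontaneous seizures recur, and their hippocampus loses neurons while glial cells react. In whole hippocampus a changed mixture of cell types and a changed methylation within cells cannot be told apart.

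A window held from 7 to 345 regions, with a median of 99. The mean number of tags per window and animal ranged from 186 to 29542 (median 2673), and the windows took up between 87.3% and 89.5% of the tags counted in each CTRL and PILO animal, which were 6972700 to 12391666. The table lists only regions that differed between some pair of animals of the study, so that a window sums its variable regions and not all of its methylated DNA. Values below are tags per 1000000 tags in windows (CPM) after trimmed mean (TMM) scaling, and fold changes are log2 ratios of PILO to CTRL.

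Summed over 1 Mb, PILO and CTRL hippocampi were close to each other on every autosome. An adjusted p below 0.05 was reached by 0 of 2569 windows (0%, edgeR quasi-likelihood test with Benjamini-Hochberg adjustment), and the smallest adjusted p was 0.998. An unadjusted p below 0.01 was found in 4 windows (0.156%), 3 higher and 1 lower in PILO, where 25.7 windows would make up 1%. Below 0.05 there were 30 windows (1.17%), 20 higher and 10 lower, where 128 windows would make up 5%. Both counts lay below these shares, so the absence of windows after adjustment does not exclude small shifts. Limma-voom, DESeq2 and the robust form of the edgeR test also gave 0 windows after adjustment. The number of 4 windows depended on single animals, since it was 11 without CTRL 1, 7 without PILO 3, and 2 without CTRL 3, without CTRL 4 or without PILO 4. It was 7 with DESeq2 and 13 with the largest flow cell alone. The values of the 5 CTRL and 4 PILO animals did not overlap in 19 windows (0.74%), 12 higher and 7 lower in PILO.

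The log2 fold changes of the 2569 windows had a median of -0.0014 and quartiles of -0.033 and 0.027. They were positive in 1253 windows and negative in 1316, and 96.3% lay within 0.1 of 0. TMM scaling on the same window sums centres these log ratios near 0. The median and the balance of signs therefore cannot show a gain or loss shared by most windows. Between animals of a group, the log2 CPM of a window varied with a median SD of 0.077 in CTRL and 0.081 in PILO. The fold changes had an SD of 0.049 over all windows. The median standard error of a fold change was 0.064. The 95% interval of the log2 fold change lay entirely within -0.2 and 0.2 in 1903 windows (74.1%) and within -0.5 and 0.5 in 2561 windows (99.7%). Shifts above 0.5 on the log2 scale were thus outside the interval of nearly all windows, whereas the interval reached a median of 0.14 to either side of the estimate.

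**Figure D1:**
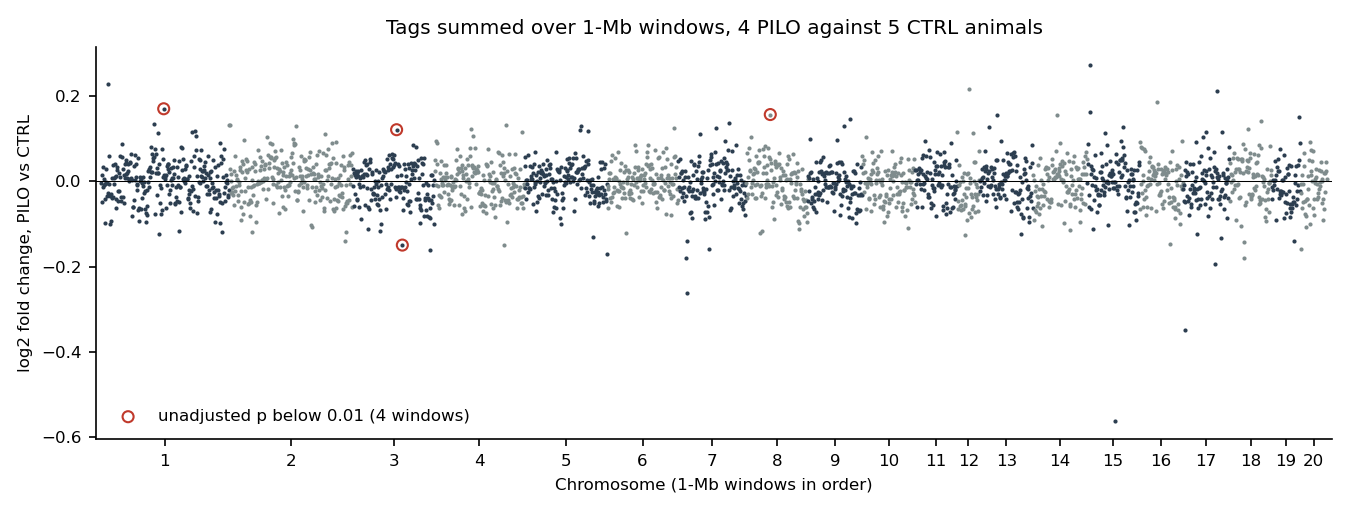
Log2 fold change of PILO against CTRL (y axis) for the 2569 windows in their order along chromosomes 1 to 20 (x axis, alternating shades), with the 4 windows at an unadjusted p below 0.01 circled. Nearly all windows (96.3%) lie within 0.1 of 0, 7 lie beyond 0.2 in either direction, and the lowest, at -0.56, is on chromosome 15.

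The smallest p value among the higher windows was on chromosome 8 from 50 to 51 Mb. Its CPM was 199, 206, 193, 206 and 202 in CTRL 1 to 5 and 225, 223, 225 and 226 in PILO 2 to 5. All PILO animals lay above all CTRL animals, and the PILO animals were within 3 CPM of each other. The log2 fold change was 0.16 with a standard error of 0.039 (edgeR, p 0.0011 before and 0.998 after adjustment), from 89 regions of which 37 had enough tags to be tested alone and 0 passed p below 0.01 by themselves. Without its most tagged region the fold change was 0.13. Over all windows, 1808 of 145000 tested regions (1.25%) had an unadjusted p below 0.01.

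On chromosome 1 from 131 to 132 Mb the CPM was 185, 191, 198, 177 and 189 in CTRL and 210.2, 203, 223 and 211 in PILO. The groups did not overlap, and PILO 3 was the PILO animal nearest to CTRL. In log2 units PILO was 0.17 higher (standard error 0.051, unadjusted p 0.0040). Of 33 tested regions 1 was higher at p below 0.01, where 1.25% of tested regions passed in all windows. On chromosome 3 from 92 to 93 Mb the CPM was 207, 199.8, 211, 209.9 and 208 in CTRL and 231, 228, 228 and 214 in PILO. Here PILO 5 stood 3 CPM above the highest CTRL animal and the other PILO animals stood well apart. PILO was 0.12 higher in log2 units (standard error 0.041, unadjusted p 0.0091).

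The next higher windows by p value lay on chromosome 19 from 57 to 58 Mb (log2 fold change 0.15), chromosome 18 from 66 to 67 Mb (0.14), chromosome 2 from 79 to 80 Mb (0.11), chromosome 17 from 41 to 42 Mb (0.10) and chromosome 17 from 72 to 73 Mb (0.21). In each of these the lowest PILO animal fell inside the range of CTRL. The last of them held the most single regions with p below 0.01 among the 16 windows named by p value, 10 higher and 1 lower of 99 tested. In all windows 1.25% of tested regions passed, and this window had been picked for its own p value and direction. The number of 11 fell to 3 without PILO 5, to 5 without CTRL 3, CTRL 5 or PILO 4 or on the largest flow cell alone, to 6 without CTRL 4 and to 7 without PILO 3. Its CPM was 597, 541, 506, 567 and 549 in CTRL and 544, 697, 659 and 655 in PILO. PILO 2 was within the CTRL range, and the other PILO animals exceeded all CTRL animals. The higher regions of this window were spread from 72114779 to 72502525, with log2 fold changes between 0.43 and 0.83.

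Among the lower windows the smallest p value was on chromosome 3 from 104 to 105 Mb. The CPM was 211, 212, 215, 211 and 223 in CTRL and 187, 199, 206 and 182 in PILO, without overlap. The log2 ratio was -0.15 with a standard error of 0.047 (edgeR, p 0.0053 before and 0.998 after adjustment). Of its 39 tested regions 5 were lower and 0 higher at p below 0.01, where 1.25% of tested regions passed in all windows. The 5 lay in a group of 3 from 104266488 to 104291749 and a group of 2 from 104895289 to 104917965. These 5 regions had means between 2.46 and 6.88 CPM in CTRL and between 0.926 and 2.99 CPM in PILO. The region from 104895289 to 104896056 had an adjusted p of 0.012 in the edgeR fit of single regions (log2 ratio -2.70), and the median fold change of all 39 was -0.056.

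On chromosome 7 from 19 to 20 Mb the CPM was 621, 925, 786, 796 and 654 in CTRL and 593, 733, 595 and 599 in PILO. CTRL itself spanned this window from 621 to 925, and PILO 3 lay among the CTRL animals. The log2 ratio was -0.26 (standard error 0.10, unadjusted p 0.019), and 27.3% of the 66 tested regions had a positive fold change. This window was picked for its lower sum, so the small share of positive regions repeats that choice. The other lower windows were on chromosome 18 from 30 to 31 Mb (log2 fold change -0.18), chromosome 1 from 254 to 255 Mb (-0.12), chromosome 16 from 63 to 64 Mb (-0.15), chromosome 17 from 80 to 81 Mb (-0.13), chromosome 1 from 18 to 19 Mb (-0.10) and chromosome 15 from 13 to 14 Mb (-0.11). Of these only the chromosome 1 window from 254 to 255 Mb had groups that did not overlap, with CTRL at 181 to 199 CPM and PILO at 170.0 to 181 CPM. In the chromosome 1 window from 18 to 19 Mb, the most tagged region held 23.0% of the tags, and the fold change was -0.050 without it.

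**Figure D2:**
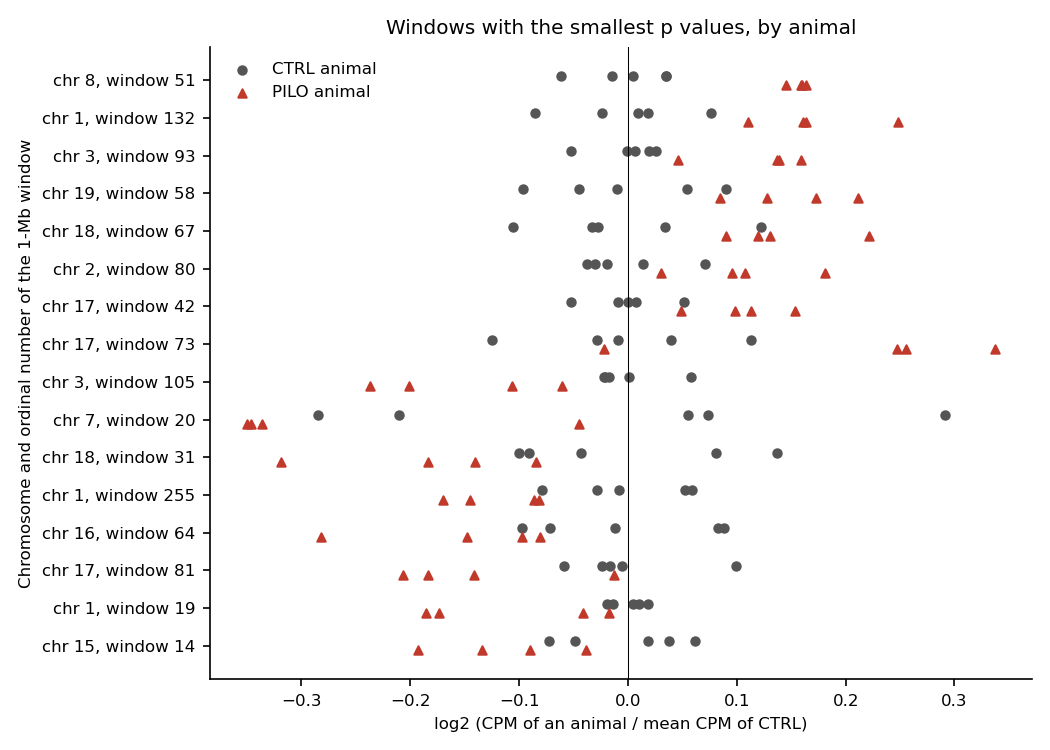
Each row is a 1-Mb window, numbered along its chromosome, and each point is an animal, placed by the log2 ratio of its CPM to the mean CPM of CTRL (x axis). The upper 8 rows are the higher and the lower 8 rows the lower windows with the smallest p values, and CTRL and PILO do not overlap in 3 of the higher and 2 of the lower rows.

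These 16 windows had been picked for their small p values against CTRL, and the PILO + KD rats were measured against the same 5 CTRL rats. The log2 fold change of PILO + KD over CTRL was 0.073 in the chromosome 8 window (CPM of 207 to 222 in the 5 animals), 0.088 in the chromosome 1 window from 131 to 132 Mb and 0.073 in the chromosome 3 window from 92 to 93 Mb. In the chromosome 17 window from 72 to 73 Mb it was 0.27, with 655, 549, 678, 712 and 737 CPM in PILO + KD 1 to 5. The chromosome 3 window from 104 to 105 Mb stood at -0.049 (195 to 212 CPM). The chromosome 7 window from 19 to 20 Mb, lower in PILO at -0.26, stood at 0.067 in PILO + KD (746 to 882 CPM).

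Of the windows with the most extreme fold changes, a single one, on chromosome 7 from 19 to 20 Mb, was also among the 16 named by p value. The 3 highest lay on chromosome 15 from 5 to 6 Mb (log2 fold change 0.27), chromosome 1 from 15 to 16 Mb (0.23) and chromosome 12 from 25 to 26 Mb (0.22), and the 3 lowest on chromosome 15 from 58 to 59 Mb (-0.56), chromosome 17 from 4 to 5 Mb (-0.35) and chromosome 7 from 19 to 20 Mb. In each of them the groups overlapped, and the adjusted p was 0.998 for each (edgeR quasi-likelihood test). On chromosome 15 from 5 to 6 Mb, 90.5% of the 63 tested regions had a positive fold change and 6 were higher at p below 0.01. This window was picked for its high sum, so the direction of its regions repeats that choice. In all windows 1.25% of tested regions had p below 0.01. The CPM there was 320, 459, 330, 292 and 356 in CTRL and 348, 424, 538 and 391.9 in PILO, so that CTRL 2 exceeded 3 of the 4 PILO animals. The fold change was 0.14 without PILO 4. On chromosome 12 from 25 to 26 Mb the CPM was 372, 336, 284, 309.5 and 316 in CTRL and 329, 448, 369 and 358 in PILO, with PILO 3 above all other animals. The fold change was 0.12 without PILO 3. In the chromosome 7 window it was -0.17 without CTRL 2.

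The window on chromosome 15 from 58 to 59 Mb was set by a single region of 3784 bp from 58344263 to 58348046, which held 40.5% of its tags. This region had 514 CPM in CTRL 2 and 518 CPM in CTRL 3, and between 64.6 and 96.9 CPM in the other 3 CTRL and in all 4 PILO animals. Without it the log2 fold change of the window was 0.039, so the direction turned. With the region kept, the fold change was -0.35 without CTRL 2 and -0.37 without CTRL 3. A similar step was seen on chromosome 1 in a region of 5319 bp from 15324165 to 15329483. It had 450.3 CPM in CTRL 4, 355 in PILO 3 and 530.3 in PILO 5, and between 34.8 and 54.5 CPM in the other 6 animals. The window's fold change was 0.019 without this region. It was 0.071 without PILO 5, 0.14 without PILO 3, 0.37 without CTRL 4 and 0.35 without PILO 4. On chromosome 17 the region from 4279845 to 4285895 stood between 12.5 and 39.2 CPM in CTRL 5 and PILO 2, 3 and 4, and between 115 and 183 CPM in the remaining animals. The fold change of its window was -0.15 without it, -0.23 without PILO 3 and -0.55 without PILO 5.

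Steps of this kind occurred between animals of the same group. Among the windows that varied most over the 9 animals, which were singled out after their values were seen, a window on distal chromosome 2 contained a region of 14081 bp from 252850120 to 252864200. It had 355 and 611 CPM in CTRL 1 and 2, 303 and 511 CPM in PILO 2 and 5, and between 43.9 and 54.6 CPM in the other 5 animals. The window had a log2 fold change of only -0.044 (unadjusted p 0.892). The PILO + KD rats also showed large steps, not always at these levels. In the chromosome 15 region PILO + KD 2 had 484 CPM and the others 69.4 to 140.4, in the chromosome 1 region PILO + KD 2 had 539 CPM and the others 32.3 to 58.8, and in the chromosome 2 region PILO + KD 2 and 5 had 327 and 347 CPM and the others 40.7 to 58.3. In the chromosome 17 region PILO + KD 1 and 3 had 35.8 and 15.4 CPM and the others 101 to 139. The most variable window, on chromosome 6 from 139 to 140 Mb, ranged from 20.1 CPM in CTRL 3 to 94.6 CPM in CTRL 4, with PILO between 39.8 and 84.9 CPM. There the most tagged region held only 8.4% of the tags.

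**Figure D3:**
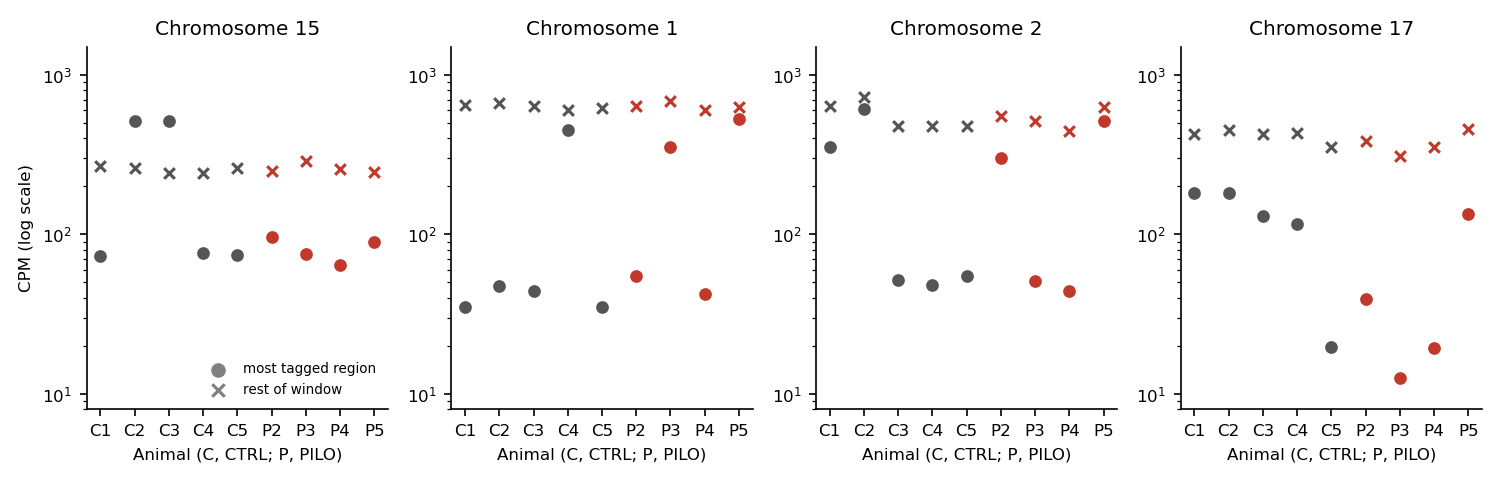
CPM (log axis) of the most tagged region (dots) and of the rest of its window (crosses) in each CTRL (C) and PILO (P) animal, for windows on chromosomes 15, 1, 2 and 17. The region steps between a low and a high level among animals of the same group, from 72.8 to 518 CPM within CTRL on chromosome 15, while the rest of that window stays between 242 and 287 CPM.

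In most windows a single region had less weight. The most tagged region held a median of 10.4% of a window's tags and more than 25% in 102 windows. When it was left out of every window, the sign of the fold change was kept in 2309 of 2569 windows.

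By bisulfite sequencing of short amplicons, the study found Camkk2 more methylated and Il10rb less methylated in PILO than in CTRL. The 1-Mb windows around these loci had nearly equal means in the groups. A sum over so many regions cannot speak to a single amplicon. Camkk2 encodes a kinase that activates calcium/calmodulin-dependent protein kinases, and its window (chromosome 12 from 34 to 35 Mb, 254 regions) had a CTRL mean of 930.5 ± 67.6 CPM (SD, n = 5) and a PILO mean of 930.5 ± 43.0 CPM (SD, n = 4), a log2 fold change of 0.00014 with a 95% interval from -0.16 to 0.16. Il10rb encodes a subunit of the interleukin-10 receptor. Its window (chromosome 11 from 31 to 32 Mb, 209 regions) had 428 ± 32.2 CPM in CTRL and 434 ± 22.3 CPM in PILO, a log2 fold change of 0.020 with a 95% interval from -0.13 to 0.17. Of the 88 tested regions in the Il10rb window, 1 was higher and 2 were lower at p below 0.01, where 1.25% of tested regions passed in all windows. The lower ones included the region from 31381090 to 31382012, in which the sequenced amplicon lies, with 6.35 CPM in CTRL and 3.32 CPM in PILO (edgeR, log2 ratio -0.90, p 0.00063 before and 0.589 after adjustment). In the Camkk2 window 0 of 149 tested regions had p below 0.01, and no value for the region at the Camkk2 amplicon is given here. With a rate of only 1.25% in all windows, such small counts are not results about these loci.

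A chromosome 4 window holds the region with the smallest p value of the whole table, from position 162809983 to 162810605 (log2 fold change -2.57). In the edgeR fit of single regions its p was 9.3e-09 before and 0.0014 after adjustment. The window itself had 208 ± 16.2 CPM in CTRL and 212 ± 13.9 CPM in PILO, a log2 fold change of 0.028 with a 95% interval from -0.13 to 0.19. That region, with 4.17 CPM in CTRL and 0.663 CPM in PILO, is a small part of the window's tags. The proximal part of rat chromosome 20 carries the major histocompatibility complex, whose position in RN4 was not used here. The chromosome 20 window from 5 to 6 Mb had 1419 ± 124 CPM in CTRL and 1373 ± 57.0 CPM in PILO, a log2 fold change of -0.048 with a 95% interval from -0.23 to 0.13.

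Of 145000 regions in the windows with enough tags to be tested, 1808 (1.25%) had an unadjusted p below 0.01, and they fell in 994 windows. In 567 windows there was 1 such region, in 243 there were 2 and in 184 there were 3 or more, while 1575 windows had none. Of the 427 windows with at least 2, 220 held higher and lower regions together, 150 only higher and 57 only lower ones. The log2 fold changes of tested regions had an SD of 0.32, against 0.049 for windows. In the 184 windows with 3 or more such regions the median window fold change was -0.018. These counts moved with PILO 3, since without it 1387 of 2133 such regions were lower in PILO, whereas with all animals 1070 of 1808 were higher. With the CTRL and PILO animals fitted alone, 1181 of 2135 were higher.

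The largest number of such regions was on proximal chromosome 20. From 4 to 5 Mb, 12 regions were higher and 10 lower of 189 tested, and the window stood at a log2 ratio of -0.062 (standard error 0.060, unadjusted p 0.317). From 3 to 4 Mb, 8 were higher and 6 lower of 136 tested, at a window fold change of 0.016. From 5 to 6 Mb, 3 were higher and 8 lower of 208 tested, among them neighbours on opposite sides. The region from 5021970 to 5023347 had 1.52 CPM in CTRL and 5.34 CPM in PILO (log2 fold change 1.80, unadjusted p 0.00059, adjusted p = 0.589), and the region from 5034460 to 5035400 fell from 6.63 to 1.63 CPM (log2 fold change -2.10, adjusted p = 0.026). Windows with several such regions on one side only included chromosome 12 from 32 to 33 Mb (8 higher, 0 lower, window fold change 0.11) and chromosome 5 from 169 to 170 Mb (8 higher, 0 lower, 0.041). These numbers moved with single animals. From 4 to 5 Mb on chromosome 20 the count of 22 was 13 without CTRL 1, 14 without PILO 5 and 8 on the largest flow cell alone, and from 5 to 6 Mb the count of 11 was 6 without PILO 5, 7 without CTRL 3, CTRL 5 or PILO 3 and 3 on the largest flow cell. The 8 regions on chromosome 12 were 5 without PILO 3 and 6 on the largest flow cell. The 8 on chromosome 5 were 4 without CTRL 5, 5 without PILO 2 and 3 on the largest flow cell.

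The largest component of the variation between animals ran through the whole genome, and animals of both groups lay on either side of it. The 10% of windows with the most regions (222 or more each) held 20.6%, 21.1%, 20.5%, 19.4% and 19.4% of the window tags in CTRL 1 to 5 and 19.7%, 21.4%, 19.2% and 19.7% in PILO 2 to 5. The highest and the lowest animal were both PILO (replicates 3 and 4), and the groups overlapped throughout. CTRL averaged 20.2% ± 0.782 (SD, n = 5) and PILO 19.96% ± 0.955 (SD, n = 4), a difference of -0.24 percentage points (exact permutation test, two-sided, p = 0.667, with 0.00794 as the smallest p that these groups allow). On the largest flow cell the difference was -0.26 percentage points (exact permutation test, p = 0.9, where 3 animals against 3 cannot go below 0.1). Without PILO 4 it was 0.030 percentage points.

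The first principal component of all windows over the 14 animals took up 63.9% of the variance. The most extreme score, -8.85, was that of PILO + KD 4, outside the groups compared. CTRL and PILO animals lay between -3.50 (PILO 4) and 4.45 (PILO 3). The loadings of this component correlated with the logarithm of the number of regions per window (Pearson r = 0.837 across windows, which are not independent). Mean scores were 0.662 ± 3.27 for the 5 CTRL and -0.323 ± 3.38 for the 4 PILO animals (mean ± SD, exact permutation test, two-sided, p = 0.659). When windows were ordered by their number of regions and divided into 10 equal groups, the share of tags in the group with the fewest regions ranged from 4.3% to 5.0% over the 9 animals. The median log2 fold change went from 0.012 in that group to -0.026 in the group with the most regions, and in each of the 10 groups the shares of CTRL and PILO differed by less than the spread between animals (exact permutation tests, smallest p = 0.627, all adjusted p = 0.778).

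Over the 9 CTRL and PILO animals, the share of tags in region-dense windows rose with the number of tags of an animal (Pearson r = 0.769, permutation p = 0.0114, and Spearman rho = 0.783, permutation p = 0.0172). This was the single relation of this kind that was computed, and it left out the PILO + KD rats. PILO + KD 1 to 5 had 8286533, 9965479, 9216157, 9910764 and 10106466 tags. Their shares were 19.9%, 21.5%, 21.3%, 17.5% and 19.1%, so that PILO + KD 4 and 5 combined many tags with low shares. Within the largest flow cell r was 0.855 (exact permutation p = 0.00694, n = 6). Without the 2 animals whose depth was farthest from the median it was 0.529 over a narrower range of depth (exact permutation p = 0.207, n = 7), so that the relation did not pass 0.05 without those animals. The share was then added to the edgeR fit as a covariate, chosen after the data were seen. The variation between animals fell from 7.11% to 3.95% (biological coefficient of variation). The share was computed from the same window counts, so a fall was built in and is not a result of its own. In this fit 61 of 2569 windows, where 25.7 would make up 1%, had an unadjusted p below 0.01. Of these, 37 were higher in PILO, and no window passed 0.05 after adjustment. The smallest adjusted p was 0.153, for the chromosome 8 window from 50 to 51 Mb (log2 fold change 0.16, standard error 0.030) and the chromosome 12 window from 32 to 33 Mb (log2 fold change 0.13, standard error 0.027).

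**Figure D4:**
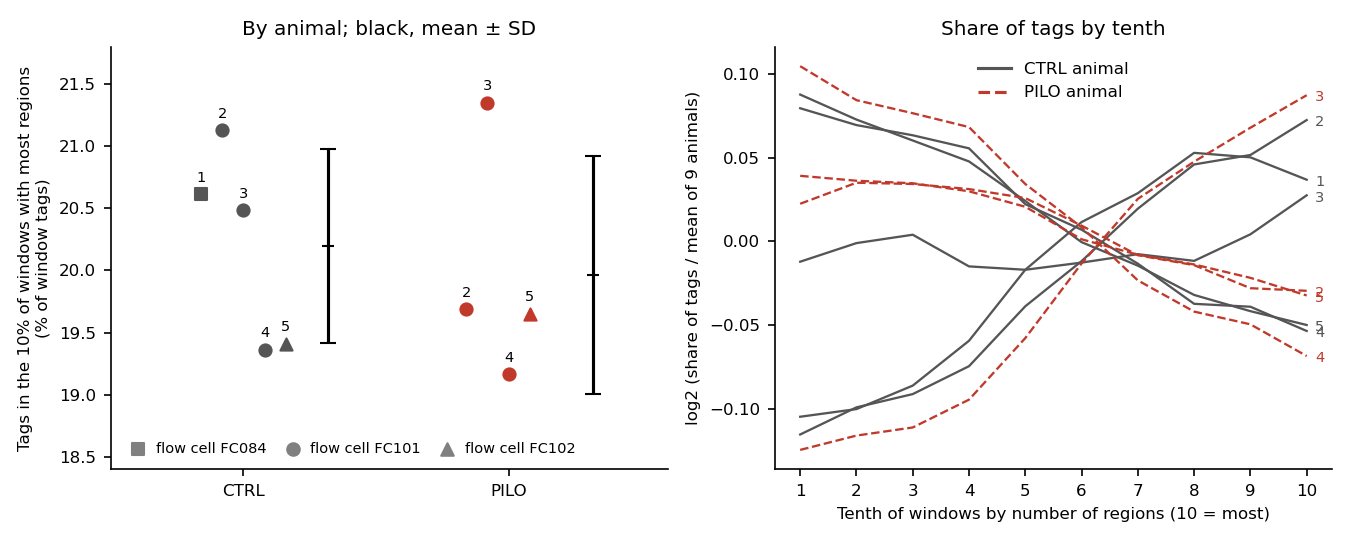
Left, percent of window tags in the 10% of windows with the most regions for each CTRL and PILO animal (numbers, replicates and symbols, flow cells), with mean ± SD in black. Right, log2 ratio of each animal's share of tags to the mean of the 9 animals in 10 equal groups of windows from the fewest to the most regions, where animals of both groups run in either direction, from PILO 3 at the top of the densest group to PILO 4 at the bottom.

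Fold changes of adjacent windows were weakly alike. Neighbouring windows correlated with r = 0.155 (2549 pairs), 0.0926 after the trend with the number of regions was removed, and windows 10 Mb apart correlated with r = 0.0497 (2369 pairs). With wider windows the fold changes drew closer to 0, with an SD of 0.065 at 0.5 Mb, 0.049 at 1 Mb, 0.037 at 2 Mb and 0.029 at 5 Mb. At 5 Mb the 522 windows ranged from -0.12 to 0.10, and at each of these widths 0 windows had an adjusted p below 0.05 in edgeR's test.

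Whole autosomes ranged from a log2 ratio of -0.021 on chromosome 20 (37716 ± 685 CPM in CTRL and 37180.4 ± 632 CPM in PILO) to 0.0078 on chromosome 2. On 0 of 20 autosomes were the groups apart. On chromosome 12, where windows hold many regions, 29.8% of the 47 windows were higher in PILO, and on chromosome 2 it was 55.2% of 259. Chromosome X, which was not divided into windows, took up 4.27% ± 0.266 of all tags in the 5 CTRL and 4.35% ± 0.256 in the 4 PILO animals (mean ± SD, exact permutation test, two-sided, p = 0.714).

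Chromosome ends were examined as the first 5 Mb and the last 5 Mb covered by windows on each autosome, next to the interior between them. Of these 60 segments, 0 had an adjusted p below 0.05 (0%, edgeR quasi-likelihood test, smallest adjusted p = 0.998), 0 had an unadjusted p below 0.05, and in 0 segments (0%) were CTRL and PILO without overlap. Log2 fold changes of the segments ranged from -0.13 to 0.095. With the largest flow cell alone 1 segment had an unadjusted p below 0.05 (p 0.0053 before and 0.32 after adjustment in edgeR) and the lowest fold change was -0.22. There was also 1 segment below 0.05 without CTRL 1, without CTRL 5 or without PILO 5, and the highest fold change was 0.16 without PILO 3. The first ends were higher in PILO in value on 10 of 20 chromosomes, the last ends on 6 and the interiors on 4, with medians of -0.0014, -0.010 and -0.0041.

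The end with the smallest p value was the first 5 Mb of chromosome 17, with 1636, 1682, 1613, 1578 and 1420 CPM in CTRL and 1469, 1330, 1375 and 1625 CPM in PILO. CTRL 5 lay among the lower PILO animals and PILO 5 among the higher CTRL animals. The log2 ratio of this end was -0.13 (standard error 0.068, unadjusted p 0.079), and this end includes the window from 4 to 5 Mb with the region described above. The other lower ends by p value were the first 5 Mb of chromosome 20 (-0.053, standard error 0.035) and of chromosome 14 (-0.028, standard error 0.024). The higher ends were the last 5 Mb of chromosome 19 (0.044, standard error 0.035), and the first 5 Mb of chromosome 16 (0.031, standard error 0.025) and of chromosome 2 (0.095, standard error 0.079). On chromosome 2 the CPM of the first end was 3837, 3593, 3635, 4182 and 4009 in CTRL and 4286, 3570.3, 4413 and 4188 in PILO, with PILO 3 below all CTRL animals and the other PILO animals above them.

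**Figure D5:**
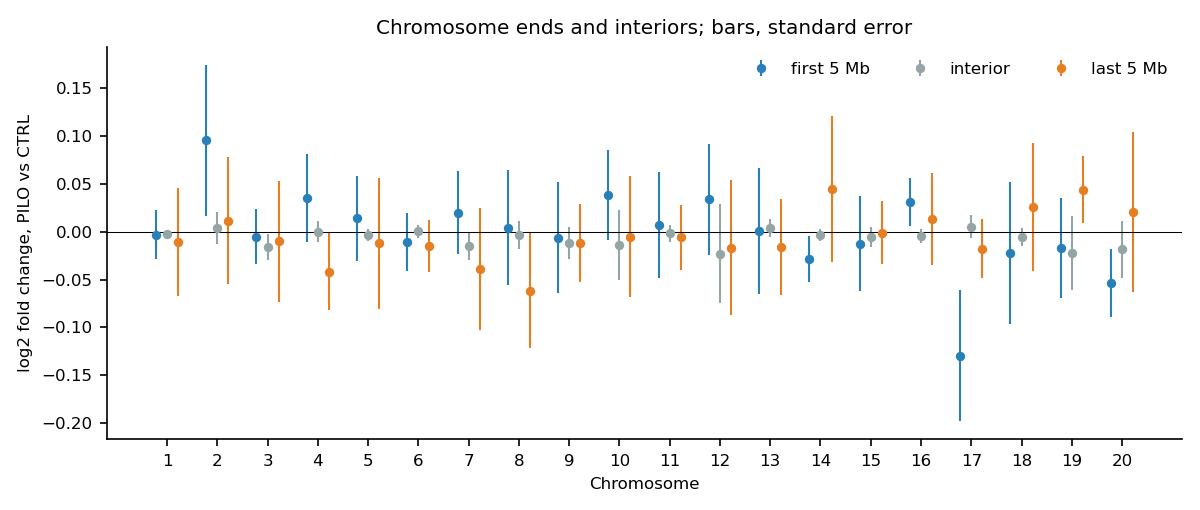
Log2 fold change of PILO against CTRL with its standard error (bars) for the first 5 Mb, the interior and the last 5 Mb of each autosome (x axis). The values range from -0.13 for the first end of chromosome 17 to 0.095 for the first end of chromosome 2. The median size of the fold change, sign left out, is 0.018 for first ends, 0.015 for last ends and 0.0047 for interiors. Each end sums 5 windows and an interior 37 to 258, so these sizes do not show that ends shift more.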

How the data were processed

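Methyl-Seq tags were analysed for 9 rats, 5 CTRL and 4 PILO, grouped by the sample labels. The authors captured methylated DNA with the MethylMiner kit, generated 36-bp single reads, mapped them with BWA to RN4, discarded duplicates, called regions differing between pairs of samples with MACS 1.4.0, merged them with bedtools, and deposited whole-number counts of tags per region and animal, not normalized. The processing notes name FastQC, BWA, MACS and bedtools. Region starts in the table count from 0, and 1 was added.

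Counts were summed into 1-Mb windows, scaled with TMM and tested with edgeR 4.0.16 (R 4.3.3, quasi-likelihood F test, all 14 animals, a mean per group, no covariate). Adjusted p values are Benjamini-Hochberg values over all windows or segments. Standard errors were derived from the F statistic, as the absolute log2 fold change over its square root. Single regions were tested alone in an edgeR fit of the regions with at least 129 summed tags, the 50th centile. Segments used the library sizes of the window fit. Single values per animal were tested by exact permutation of animals, two-sided.

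Windows were named by rule: the 8 higher and 8 lower with the smallest p values, the 3 highest and 3 lowest fold changes, 4 windows holding known loci, and 3 higher and 3 lower chromosome ends. The comparison, windows and rules were chosen with earlier results of these data known. The fit was tested on simulated counts. Alternatives covered scaling, filters, window size, DESeq2 1.42.0, limma 3.58.1, animals and covariates. Numbers of tags limit precision less than the spread between animals, since window counts of same-group libraries were 3.2 to 23.3 times as variable as counting error allows (chi-square divided by its degrees of freedom). The labels name separate animals. Same-numbered CTRL and PILO animals are different rats, and numbers were not used for pairing. Gene positions in RN4 and sequences were not used here.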

Additional observations from a re-analysis of the deposited data

Results flagged for a closer look

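The windows, ends and single regions named above and the share of tags in region-dense windows gave 72 sets of 4 or 5 animals. In 5 of them a sample stood apart from the rest of its group by Dixon's 95% critical value. Chance alone gives about 1 in 20 in independent sets that were not picked. Most of these sets were picked for their values and some share tags, so that rate cannot be applied to them. In the chromosome 3 window from 104 to 105 Mb, CTRL 5 had 223 CPM, and the next CTRL animal had 215 CPM. In the chromosome 7 window from 19 to 20 Mb, PILO 3 had 733 CPM against 593 to 599 CPM in the other PILO animals. In the chromosome 1 window from 15 to 16 Mb, CTRL 4 had 1050.4 CPM against 656 to 713 CPM in the other CTRL animals, and its most tagged region had 450.3 CPM against 34.8 to 47.4 CPM. In the first 5 Mb of chromosome 20, PILO 4 had 3199.9 CPM against 3363 to 3390 CPM in the other PILO animals.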

How the results depend on the processing

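No window and no segment had an adjusted p below 0.05 under any alternative, edgeR, DESeq2 and limma-voom included. The number of windows with an unadjusted p below 0.01, 4 in the reported fit, was 1 with TMM factors from regions, 8 with loess offsets on abundance, 28 with loess offsets on the number of regions (chosen after the data were seen), 2 with regions past the 50th centile, 2 without the most tagged region, 14 in 0.5-Mb, 0 in 2-Mb and 0 in 5-Mb windows, 2 with shifted windows, 7 with DESeq2, 7 with CTRL and PILO animals only, 13 with the largest flow cell, 61 with the dense-window share as a covariate, and 2 to 11 with each animal left out. The percent of these windows that were higher in PILO, 75% in the reported fit, was 100% with TMM factors from regions and with shifted windows, 50% with regions past the 50th centile and without the most tagged region, 38.5% on the largest flow cell, where most were lower, and 42.9% to 100% with each animal left out. The percent of single regions higher in PILO was 55.3% with CTRL and PILO animals only and 35.0% to 66.5% with each animal left out. The difference of the dense-window share ranged from -0.70 to 0.030 percentage points with each animal left out, and its sign turned without PILO 4.

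Among named windows, the Camkk2 window changed sign in 8 alternatives. These included regions past the 50th centile (-0.0035), limma-voom (-0.0013), the largest flow cell (-0.015) and flow cell as a covariate (-0.00072). They also included the fits without PILO 2 (-0.0112), without PILO 3 (-0.0197) and without CTRL 4 (-0.0246). Over all alternatives the Camkk2 window ranged from -0.027 to 0.040. The chromosome 15 window from 58 to 59 Mb turned to 0.039 without its most tagged region, and the chromosome 1 window from 15 to 16 Mb to -0.027 on the largest flow cell. With an animal left out, the log2 fold change ranged from -0.012 to 0.062 for the Il10rb window and from -0.016 to 0.068 for the chromosome 4 window, which changed sign as well. Apart from the most tagged region, the causes were not tested.

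Replicate numbers recur between CTRL and PILO. Same-numbered animals correlated in their deviations from group means with r between -0.209 and 0.623 (mean 0.174, other pairs -0.015). With so few pairs these values cannot decide whether the numbers pair the animals. With the replicate block, in CTRL and PILO animals only, 26 windows had p below 0.01 in edgeR, against 7 in these animals without the block. With the block 0 windows had an adjusted p below 0.05, and 1 segment had an unadjusted p below 0.05.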
